A study of Rattus norvegicus with 69 samples.

Results

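Pachytene spermatocytes, the germ cells in the long middle part of meiotic prophase, were compared with a pool of spermatogonia and early spermatocytes, the mitotic and first meiotic cells from which they arise. The comparison used 7 of the 69 arrays of the series, 4 of pachytene spermatocytes and 3 of the pool, which is called early germ cells here. The groups were taken from the sample titles. All samples came from Sprague Dawley rats with no treatment or mutation given. Pachytene spermatocytes were prepared from rats aged 55 to 60 days and early germ cells from rats aged 18 to 20 days, so age and cell group cannot be told apart. Both were separated by centrifugal elutriation, which sorts cells by size, after the testis had been dispersed with enzymes, and the labels gave 85% to 95% purity. Nothing said that the samples of a group came from different animals, so the p-values measure the spread between samples. For reference, 4 samples each of Sertoli cells (about 85% pure) and round spermatids, both from rats aged 55 to 60 days, entered the same fit, and 49 tubule samples in 10 stage groups and 5 of whole testis were used as levels only.

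During pachytene, homologous chromosomes lie joined along the synaptonemal complex and complete recombination, and the X and Y chromosomes, which have no full partner, are packed into a compartment where most of their genes are silenced. Spermatogonia and the youngest spermatocytes still divide, copy DNA and lie near the wall of the tubule, where they respond to growth factors and retinoic acid. Pachytene cells are known to make RNA for the later sperm, such as that for the flagellum and the acrosome, long before the structures appear. Rfx2 and Mybl1 encode transcription factors known for their part in that programme.

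Levels are array signals, scaled by the authors to the same trimmed mean in each array. A probe set was called higher or lower when limma's moderated test gave a Benjamini-Hochberg adjusted p under 0.05 and the difference was at least 2-fold on the scale of log2(signal + 5.11). Of 20253 probe sets tested, 3749 (18.5%) were called higher in pachytene spermatocytes and 5792 (28.6%) lower. With 1 probe set per gene, 11520 genes were tested, and 2363 (20.5%) were higher and 3330 (28.9%) lower, with a median log2 difference of -0.14. These 2 shares are the background for each list below. The split depended on the scaling: 39.3% of called probe sets were higher as deposited, 48.5% after quantile normalization and 53.8% when arrays were set to the same median, which moved the median of all probe sets from -0.15 to 0.13 and 0.23. The array median was 34.3 to 40.0 in pachytene samples and 43.7, 46.9 and 58.2 in early germ cells, and the highest of these, replicate 3, also had the highest actin 3' to 5' ratio (3.64, against 1.54 and 1.88), a sign of RNA quality. Pachytene samples had actin ratios of 2.02 to 2.56, above early germ cell replicates 1 and 2. The Gapdh ratios overlapped, at 1.07 to 1.51 and 0.958 to 1.56. What part RNA quality plays in the differences was not tested.

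Of the 3330 genes called lower, 3031 (91.0%) were above the median signal of the whole table in at least 1 Sertoli sample, as were 9111 (79.1%) of all 11520 genes tested. Of 29 matrix and fibroblast genes 28 were lower (median -4.55), of 26 Sertoli cell genes 16, of 16 Leydig cell genes 11, of 18 macrophage and blood genes 14 and of 27 immediate early and heat shock genes 23 (median -3.89). The summed signal of the matrix and fibroblast list was 1496 to 1692 in pachytene samples, 32510 to 42156 in early germ cells and 13817 to 20316 in Sertoli cells. That of the macrophage and blood list was 1630 to 1783, 5728 to 6157 and 2181 to 2714 in the same order, so both lists stood higher in early germ cells than in Sertoli cells. The endothelial list had 1 higher and 2 lower of 12. The summed signal of the immediate early and heat shock list was 3344 to 4093 in pachytene samples and 22902 to 31573 in early germ cells. It was 18618 to 22706 in Sertoli cells, 5612 to 5913 in round spermatids and 4344 to 4942 in whole testis. What part the preparation of the cells plays in that list was not tested. In bulk samples, fewer cells of a type and less RNA per cell cannot be told apart, and the part that these cells play in each result below was not tested except where a value is given.

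The 6 largest falls among genes present in Sertoli cells are given next. Ccl2, a chemokine that draws monocytes, gave 3.81, 7.14, 3.63 and 7.01 in the pachytene samples and 2330, 3175 and 5136 in early germ cells, a log2 difference of -8.34 (SE 0.396, limma adjusted p = 1.80e-12). Its signal was 987 in Sertoli cells, 73.2 in round spermatids, 27.3 in the tubule stage where it was highest and 4.85 in whole testis. The laminin-binding basement membrane gene Nid1 fell by 7.17 on the log2 scale, from 1672, 2150 and 2624 to between 4.27 and 21.0. Cyp17a1, an enzyme of androgen synthesis in Leydig cells, fell by 7.04, Lamb1, a laminin chain, by 6.82, Nfkbia, the inhibitor of NF-kappa B, by 6.80, and the chemokine gene Ccl7 by 6.73. The rule that named these 6 asked for no overlap between the groups, which 3294 of the 3330 genes called lower met.

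To look past somatic RNA, genes were also described when all 4 Sertoli samples lay at or under 43.7, the median signal of the whole table. Of 2409 such Sertoli-low genes, 489 (20.3%, beside 20.5% of all genes) were higher in pachytene spermatocytes and 299 (12.4%) lower, with a median of 0.15. Of the 489 higher genes, 50 passed the filter on low signal only because of the pachytene samples, so these had to differ. Of the 299 lower genes, 241 passed the filter on low signal only because of the early germ cell samples, so these had to differ and their count supports nothing. The 12 largest falls among them were Postn (-6.58), Mest, Cpa1, Efemp1, Gpc3, Col6a6, Col13a1, Clec3b, Colec12, Gli1, Twist1 and Ldb2 (-4.36). Many of these are genes of connective tissue, such as the matrix protein periostin (Postn), the collagen genes Col6a6 and Col13a1 and the mesenchymal transcription factor Twist1. Postn had a signal of 570, 756 and 735 in early germ cells, 1.31 to 2.43 in pachytene spermatocytes and at most 5.25 in any stage of tubules. A further criterion, chosen after these values were seen, therefore asked for a mean above 43.7 in at least 1 tubule stage group. Of 2138 genes left, 475 (22.2%) were higher and 118 (5.52%) lower, and 63 of the 118 likewise passed the filter only because of the early germ cell samples.

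The next 12 genes had the largest rises among Sertoli-low genes with separate groups. Spag16, which encodes a protein of the central pair of the axoneme, gave 899, 760, 717 and 994 in the pachytene samples and 1.50, 1.88 and 4.10 in early germ cells. No early germ cell sample came near a pachytene sample, and the log2 difference of 6.80 (SE 0.171, limma adjusted p = 3.00e-15) was 112-fold. Ccno, a cyclin-like gene needed for building multiple cilia, followed with 552, 637, 516 and 778 against 2.59, 3.23 and 6.31 (68.6-fold). It was higher in pachytene spermatocytes than in round spermatids, where it averaged 328 ± 29.1 (SD, n = 4). Chdh, which oxidizes choline, was 46.2-fold higher, the tektin gene Tekt4 41.2-fold, Ccdc113 34.8-fold, and the radial spoke gene Rsph6a 34.0-fold. Podnl1, Dmrt2, Prss40, Lin7a and Atp1a4, the last encoding the sodium pump form of sperm, lay between 31.8-fold and 34.4-fold. Atad3aos, named as an antisense transcript, was 53.6-fold higher. In round spermatids the means of the 12 lay between 181 for Podnl1 and 1907 for Atp1a4.

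**Figure D1:**
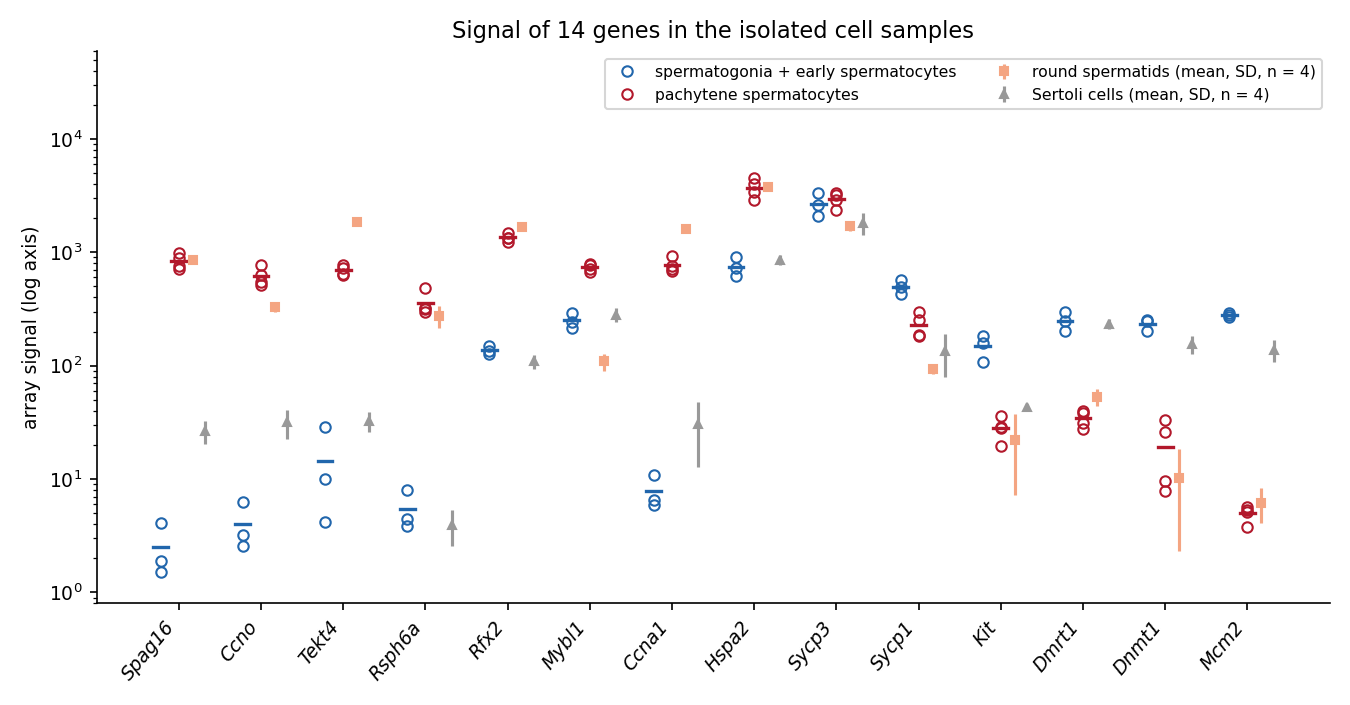
Array signal on a log axis for 14 genes: open circles are single samples of early germ cells (3) and pachytene spermatocytes (4) with a bar at the mean, and filled symbols are the mean and SD of 4 round spermatid and 4 Sertoli samples. Spag16, Ccno, Tekt4, Rsph6a and Ccna1 rise from under 30 to over 200, Sycp3 overlaps, and Kit, Dmrt1, Dnmt1 and Mcm2 fall.

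The flagellum genes rose as a block. Of 34 axoneme genes tested, which encode the microtubule doublets, radial spokes, dynein arms and their assembly factors, 32 were higher and 0 lower, with a median log2 difference of 3.49 against -0.14 for all genes. By symbol, 17 of 19 cilia and flagella associated (CFAP) genes and 14 of 17 dynein genes were higher and none lower. Drc1, a part of the dynein regulatory complex, gave 772, 673, 679 and 873 against 9.09, 7.89 and 8.17 (log2 difference 5.80, SE 0.149). Cfap161 rose 45.3-fold, Cfap299 24.0-fold, the outer arm dynein gene Dnah17 24.0-fold and the inner arm light chain gene Dnali1 14.2-fold. The 2 axoneme genes not called were Efhc2, which is X-linked, at -0.09 and Cfap300 at -0.64. Of the 11 axoneme genes that were Sertoli-low, 10 were higher. After quantile normalization and median scaling the axoneme median was 3.70 and 3.86.

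Transport within the growing flagellum and its regulators moved the same way. Of 33 genes for intraflagellar transport, the BBSome and ciliogenesis factors, 25 were higher and 1 was lower, with a median of 1.78. Bbs1, a subunit of the BBSome cargo adaptor, was at 1008, 1071, 1050 and 1043 against 71.1, 51.3 and 46.0 in early germ cells, a 17.4-fold difference with almost no spread among the pachytene samples. The transcription factor gene Rfx2 was at 1347, 1227, 1349 and 1494 against 148, 136 and 126 (log2 difference 3.26, SE 0.109, limma adjusted p = 3.58e-14). The groups did not overlap, and round spermatids were at 1683 ± 46.2 (SD, n = 4). The forkhead gene Foxj2 was the lower one, at -1.33, at low signals of 9.35 to 58.5 and 77.2 to 88.9, and without pachytene replicate 1 it was at -0.91 and not called.

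Since RFX factors are known to bind promoters of cilia genes, the 250 bases before the start of each gene were searched on both strands. The RFX motif was GTTNCC, the core shared by RFX sites. RefSeq's table of assembly GRCr8 held a promoter for 27 of the 32 axoneme genes that rose, and 16 of these (59.3%) held the RFX motif. It stood in 41.5% of the promoters of the 9575 tested genes that had one, in 44.7% of those of all genes called higher and in 39.8% of all 27457 promoters in the table. A first MYB motif, ACCGTT, stood in 101 of 2015 promoters of genes called higher (5.01%), in 3.47% of those tested and in 2.77% of those of genes called lower. A second MYB motif, CAGTTG, stood in 6 of the 27 axoneme promoters (22.2%) and in 9.10% of those tested. The cAMP response element, TGACGTCA, stood in 2.78% of the promoters of genes called higher, 2.93% of those tested and 2.73% of those of genes called lower. Among Sertoli-low genes it stood in 15 of 406 promoters of higher genes (3.69%) and in 1 of 233 of lower genes (0.429%), and the RFX motif in 43.3% of both. A further 5 motifs were searched, and 4 of them are given by their share among axoneme promoters and promoters tested. The E-box, CACGTG, stood in 11.1% and 8.49%. The SP1 GC box, GGGCGG, stood in 51.9% and 57.8%. The E2F site, TTTNNCGC, stood in 7.41% and 7.02%. The shorter cAMP element, TGACGNNA, which includes every match to the full one, stood in 3.70% and 9.96%. The last, the CCAAT box, stood in 29.6% and 35.5%. The table held no entry matched to Spag16. The promoters of the next 4 axoneme genes by rise among those with an entry are shown with that of Rfx2, because these genes rose together. Bases before the start are given 5′ to 3′ on the strand of the gene, from GRCr8, with capitals at matches to the RFX motif, both MYB motifs and the full cAMP response element on either strand.
Rfx2: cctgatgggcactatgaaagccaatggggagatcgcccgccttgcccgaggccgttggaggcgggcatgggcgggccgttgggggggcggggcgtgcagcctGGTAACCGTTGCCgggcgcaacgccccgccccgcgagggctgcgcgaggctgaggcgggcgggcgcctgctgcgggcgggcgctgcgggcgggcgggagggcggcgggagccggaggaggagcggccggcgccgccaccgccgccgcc
Drc1: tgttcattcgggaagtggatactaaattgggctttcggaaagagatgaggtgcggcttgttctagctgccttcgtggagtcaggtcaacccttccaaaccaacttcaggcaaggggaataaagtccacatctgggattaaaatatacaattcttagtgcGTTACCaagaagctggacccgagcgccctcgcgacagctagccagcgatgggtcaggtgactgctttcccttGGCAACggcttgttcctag
Cfap161: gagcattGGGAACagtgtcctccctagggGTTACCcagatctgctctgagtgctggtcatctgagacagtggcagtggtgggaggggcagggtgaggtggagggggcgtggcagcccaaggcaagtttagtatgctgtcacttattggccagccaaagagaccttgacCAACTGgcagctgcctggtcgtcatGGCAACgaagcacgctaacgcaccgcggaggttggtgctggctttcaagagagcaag
Tekt4: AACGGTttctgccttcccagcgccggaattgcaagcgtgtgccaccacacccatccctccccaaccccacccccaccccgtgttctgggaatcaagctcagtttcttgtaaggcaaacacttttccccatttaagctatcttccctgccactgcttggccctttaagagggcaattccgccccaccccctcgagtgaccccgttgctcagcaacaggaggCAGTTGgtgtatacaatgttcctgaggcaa
Rsph6a: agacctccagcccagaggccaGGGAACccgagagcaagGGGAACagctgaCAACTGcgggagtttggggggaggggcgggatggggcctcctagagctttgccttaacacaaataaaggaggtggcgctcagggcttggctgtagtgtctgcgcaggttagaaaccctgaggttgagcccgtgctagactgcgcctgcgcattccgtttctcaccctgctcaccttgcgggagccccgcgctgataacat
Rfx2 (chr9:1758147-1758396, minus strand) held RFX matches that begin at -148 and -141, counted from the start of the gene, with a match to the first MYB motif at -144 that overlaps both. Drc1 (chr6:31779257-31779506, minus strand) held RFX matches at -91 and -19. Cfap161 (chr1:147177822-147178071, minus strand) held RFX matches at -243, -221 and -57 and the second MYB motif at -82. Rsph6a (chr1:87828594-87828843, plus strand) held RFX matches at -229 and -212 and the second MYB motif at -200. Tekt4 (chr10:14992034-14992283, plus strand) held no match to GTTNCC, which does not exclude an RFX site of other letters. It held the first MYB motif at -250 and the second at -30. A match describes these letters and shows no binding.

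Genes of the later sperm rose as well. Of 23 acrosome and spermatid genes, 22 were higher and 0 lower, with a median of 4.66. Tnp1, a transition protein that replaces histones in spermatids, gave 2569, 1716, 2292 and 2555 against 0.895, 1.08 and 2.02, a log2 difference of 8.46, and the protamine gene Prm1 rose by 8.04 on the same scale. Tnp1 was at 4255 ± 395 in round spermatids and Prm1 at 5389 ± 457 (SD, n = 4 each), both above every pachytene sample. The summed signal of the list was 21498 to 29225 in pachytene samples, 1652 to 2219 in early germ cells and 55323 to 65696 in round spermatids. It was 3478 to 9973 in Sertoli samples, above early germ cells, so a gene present in Sertoli samples need not be a somatic one. What part germ cell RNA plays in the Sertoli samples was not tested. What part spermatids carried along in the elutriated fraction play in these rises was not tested. Of 14 SPATA genes 10 were higher and 1 lower, and of 38 DnaJ chaperone genes 16 were higher and 3 lower (median 0.79). Spata20 (74.3-fold), Spata21 (19.7-fold), Dnajb3 (28.3-fold) and Dnajb7 (23.6-fold) led these families, and each was higher again in round spermatids. Histones showed single large steps: the spermatid linker histone gene Hils1 rose 87.4-fold and the linker histone gene H1f2 fell by 4.92 on the log2 scale, from 664, 865 and 725 to between 15.9 and 21.8.

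The 2363 genes called higher were set beside round spermatids, whose levels were not part of that contrast. All 4 pachytene samples lay above all 4 round spermatid samples for 824 of them and below for 774, and the groups overlapped for 765. The G2 and M phase list had 9 of its 12 risen genes above and 2 below, the intraflagellar list 16 of 25 above and 7 below, the axoneme list 8 of 32 above and 9 below, and the acrosome and spermatid list 0 of 22 above and 18 below. Of 489 Sertoli-low genes 102 were above and 217 below. These are counts of groups that do not overlap, with no further test.

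**Figure D2:**
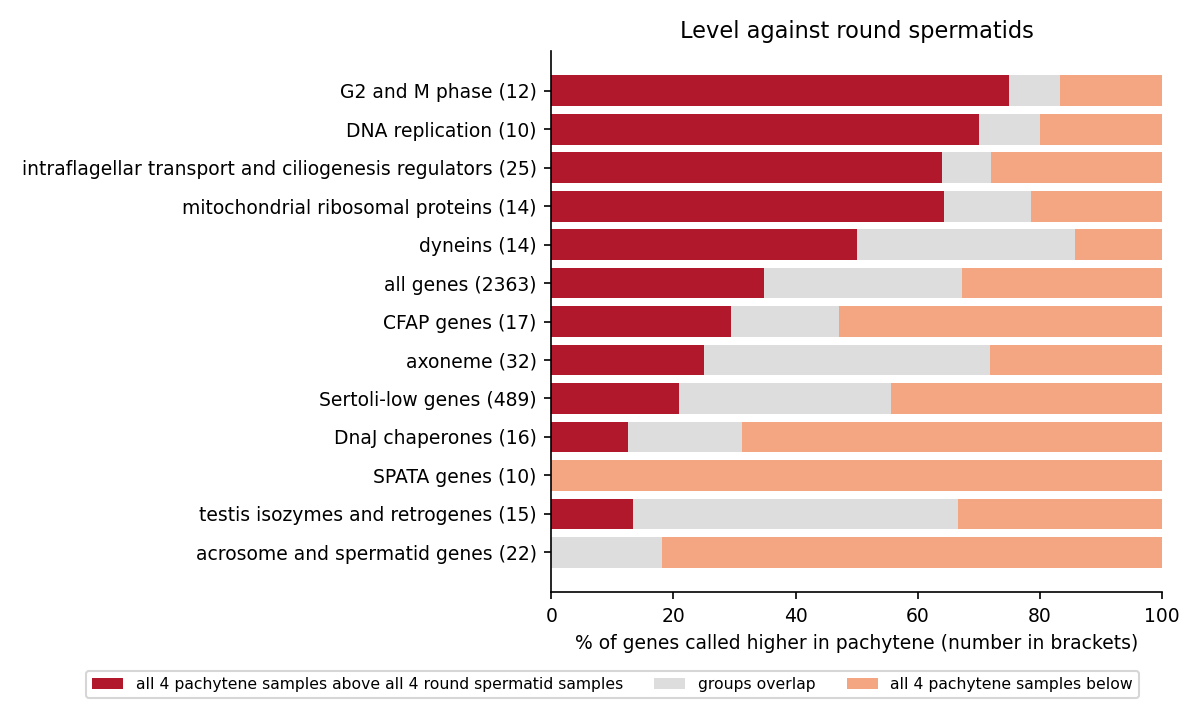
For the genes of each list called higher in pachytene spermatocytes than in early germ cells (number in brackets), the share whose 4 pachytene samples lay above, overlapped with or lay below the 4 round spermatid samples. Risen genes of G2 and M phase, DNA replication and intraflagellar transport lie mostly above, and SPATA and acrosome genes lie mostly or all below.

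A set of 320 genes was at its highest in pachytene spermatocytes among the isolated cells, by a rule chosen after these values were seen: called higher, all 4 samples above every round spermatid and Sertoli sample, and at least 2-fold above the round spermatid mean. Trim14, a gene of the tripartite motif family, led them with 1273, 1052, 1042 and 1399 against 16.3, 21.0 and 47.4 in early germ cells, and 396 ± 51.5 in round spermatids (SD, n = 4). Pde4dip, which encodes a scaffold of centrosome and Golgi, was at 2383 ± 329 (n = 4), 863 ± 36.5 in round spermatids and 94.4 in early germ cells. Cbx7, a Polycomb subunit that reads methylated histone H3, was at 619 ± 35.1 and 267 ± 33.2. Slc13a5, the plasma membrane citrate carrier, was at 1176 ± 178 and 585 ± 52.4. The set also held genes of the dynein arms, with the heavy chain genes Dnah1 at 591 ± 40.6 against 282 ± 24.5 and Dnah2 at 630 ± 68.0 against 292 ± 35.5, and the dynein assembly factor Zmynd10 at 1073 ± 161 against 394 ± 21.5. Prok2, a secreted peptide, was at 380 ± 33.2 in pachytene spermatocytes, 41.5 ± 11.8 in round spermatids and 25.7 in early germ cells.

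Each of the cell cycle lists held genes that moved in either direction. Of 38 genes of G2 and M phase 12 were higher and 7 lower (median 0.36). Of 43 DNA replication genes 10 (23.3%) were higher and 18 lower, with a median of -0.74 that was -0.28 with median scaling, and of 32 genes of G1 cyclins, E2F and CDK inhibitors 4 were higher and 16 lower (median -0.73). The difference between these lists was not tested. Ccna1, the meiotic cyclin A, gave 758, 683, 713 and 927 against 5.87, 6.56 and 10.9, a log2 difference of 5.92, and its mitotic relative Ccna2 gave 22.4, 11.3, 7.13 and 15.4 against 202, 210 and 148, a difference of -3.37. The 2 cyclins lay on opposite sides with no overlap in either. Cdca8, of the chromosomal passenger complex, rose 9.62-fold and Aurkc, a kinase of that complex in germ cells, 6.33-fold, with Aurkc at 1000 in pachytene spermatocytes and 282 in round spermatids. Cdc25b, a phosphatase that starts mitosis, fell by 2.49 on the log2 scale. In the replication list, Mcm2, of the helicase that opens origins, fell from 270, 292 and 278 to between 3.75 and 5.70 (log2 difference -4.82) and Mcm4 by 3.33. The origin recognition gene Orc3 and Rpa1, for the single strand binding protein also used in recombination, rose 5.56-fold and 4.60-fold. Myc fell by 5.51 and the pocket protein gene Rbl2 by 3.32, and the inhibitor gene Cdkn2b rose 5.93-fold, from 6.49, 20.5 and 14.6 to between 81.8 and 113. Myc was at 131 in Sertoli cells but at 4.96 in whole testis. Mxd4, an antagonist of MYC, rose 8.48-fold.

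Single genes of meiosis moved either way. Of 7 synaptonemal complex and meiotic cohesin genes, 1 was higher and 2 were lower, with a median of 0.15 that ranged from -0.01 to 0.55 over the alternative settings, with 1 to 3 higher. Sycp3, a lateral element of the complex, gave 3213, 2364, 2876 and 3368 in pachytene spermatocytes and 2104, 2626 and 3323 in early germ cells, which overlap (log2 difference 0.15, limma adjusted p = 0.470). Sycp2 was at 1019 to 1082 against 527 to 637, a 1.85-fold difference that missed the 2-fold minimum. Sycp1, the transverse filament, was lower at 184 to 296 against 429 to 566 (-1.12, SE 0.254), but with median scaling Sycp1 was at -0.72 and not called and Sycp2 at 1.29 and called. Stag3, the meiotic cohesin subunit, was higher at 1489 to 1814 against 415 to 700 (2.91-fold). Of 20 recombination genes 6 were higher and 4 lower, shares of 30.0% and 20.0% beside the background of 20.5% and 28.9%. Mlh3, which acts in crossover formation, gave 157, 198, 146 and 133 against 82.9, 61.6 and 9.39, and it was at 3.64 in round spermatids. Its other probe set was not called. Mus81, a nuclease of another crossover route, rose 6.25-fold, Spo11, which makes the double strand breaks, stood at 1.95-fold and was not called (log2 difference 0.96, but 1.32 and called with median scaling and 1.23 and called without early germ cell replicate 1), and Mnd1 and Tex15, which act early with the strand exchange proteins, fell by 4.14 and 3.41.

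Of 11 genes of the piRNA pathway, small RNAs that silence transposons and act in pachytene cells, 7 were higher and 0 lower (median 1.21). Mybl1, the factor that drives pachytene piRNA transcription, gave 789, 706, 669 and 780 against 291, 217 and 244 (2.91-fold, limma adjusted p = 2.12e-08). It was at 281 ± 40.1 in Sertoli samples and at 109 ± 18.6 in round spermatids (SD, n = 4 each). Tdrd7, a Tudor protein of germ granules, rose 5.46-fold, and the helicase gene Mov10l1 7.32-fold with a wide spread in early germ cells of 73.7, 36.9 and 2.17. Piwil2, one of the proteins that carry piRNAs, overlapped between the groups at 405 to 529 and 520 to 696. Hspa2, the heat shock protein of pachytene spermatocytes, rose 4.91-fold to 3966, 2878, 3427 and 4544 from 903, 720 and 622. Crem, a factor of spermatids, was at 416 to 449 against 504 to 1041 by its strongest probe set and was not called, but 3 of its 6 tested probe sets were lower.

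**Figure D3:**
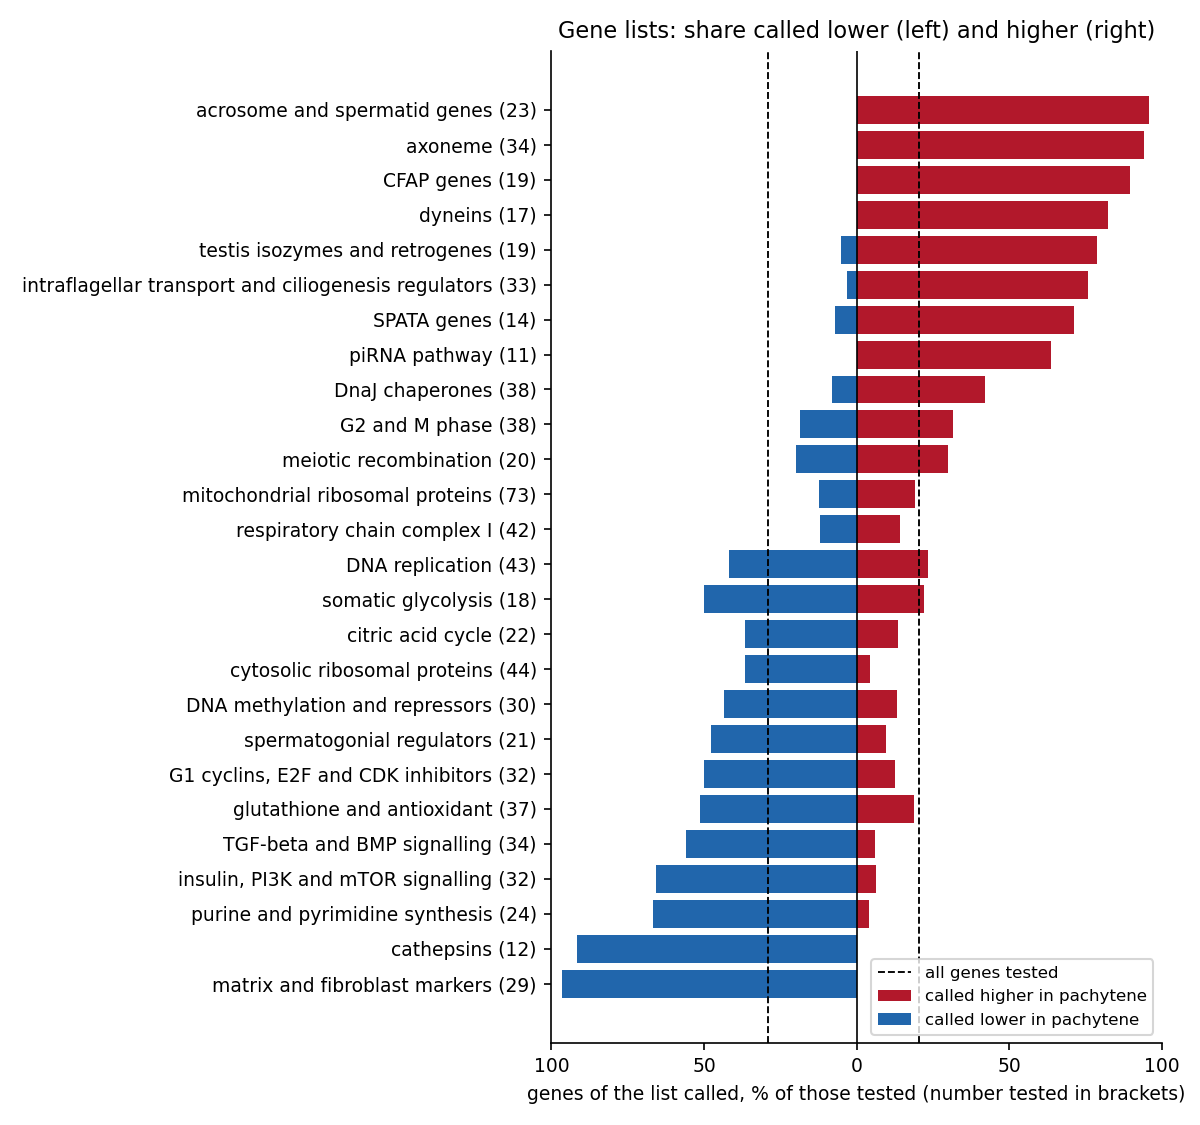
For 26 gene lists and families, the share of tested genes called lower (left) and higher (right) in pachytene spermatocytes, with the number tested in brackets. Dashed lines give all genes tested, 28.9% lower and 20.5% higher; the sperm lists at the top pass the right line by far, and the cathepsin and matrix lists pass the left one.

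Regulators of spermatogonia fell in part. Of 21 tested, 10 were lower and 2 higher, with a median of -0.64. The summed signal of the list was 1134 to 1297 in pachytene samples, 2141 to 2521 in early germ cells and 3063 to 3303 in Sertoli cells. Only 3 of the 21 were Sertoli-low, and of these 1 was higher and 1 lower. The part of somatic RNA in these falls was not tested. Kit, the receptor of differentiating spermatogonia, gave 19.5, 28.1, 28.6 and 36.2 in pachytene spermatocytes against 160, 184 and 107 in early germ cells (4.64-fold), and Sertoli samples were at 42.9 ± 3.37 (SD, n = 4). Sohlh1, a factor of spermatogonial differentiation, fell by 3.23 on the log2 scale from 110, 111 and 83.7 to between 4.32 and 9.03, and the GDNF receptor gene Ret by 2.82. Dmrt1, which blocks entry to meiosis, was lower by 2.68 but was at 233 in Sertoli cells, which also express it. Id4, a marker of stem spermatogonia, went the other way at 401 to 490 against 135 to 154 (3.03-fold), and all 4 of its probe sets rose. Foxo1 also rose, but at low signal (22.8 to 53.5 against 7.99 to 17.9), and without early germ cell replicate 3 it was at 0.76 on the log2 scale and not called.

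Of 30 DNA methylation and repressor genes 13 were lower and 4 higher, with a median of -0.68. With arrays set to the same median it was -0.11, and 7 to 14 genes were lower over the alternative settings. Dnmt1, the maintenance methyltransferase, gave 33.1, 7.80, 9.60 and 26.2 against 251, 248 and 203, a 10.9-fold difference, and was at 156 in Sertoli cells. The de novo enzymes Dnmt3b and Dnmt3a were lower by 1.55 and 1.08, from at most 68.3 and 70.6 in early germ cells, and Dnmt3a was not called at -0.94 without early germ cell replicate 3 or pachytene replicate 1, at -0.72 with median scaling, at -0.79 with quantile normalization or at -0.87 with a larger constant. Mbd2, a reader of methylated DNA, fell by 5.69 and the chromatin remodeler gene Hells by 4.51, both present in Sertoli cells. Mbd3 and Mta1, both of the NuRD repressor complex, rose 3.16-fold and 3.71-fold, and Mta1 was at 350 in pachytene spermatocytes against 98.3 in early germ cells and 78.9 in round spermatids. The list of sex body and silencing genes had 3 higher and 4 lower of 16, with a median of -0.26 that was 0.14 with arrays set to the same median. In it, the heterochromatin gene Cbx5 rose 7.76-fold and the H3K9 methyltransferase gene Ehmt1 fell by 3.74.

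The metabolic lists differed from one another. Of 42 genes of respiratory chain complex I 6 were higher and 5 lower (median 0.50), and of 27 of fatty acid oxidation 8 were higher and 12 lower, with a median of -0.13 that was 0.25 with median scaling. Of 24 purine and pyrimidine synthesis genes 16 were lower and 1, Gmps, was higher (median -1.61), with Cad, the first enzyme of pyrimidine synthesis, lower by 4.06. Of 32 genes of insulin, PI3K and mTOR signalling 21 were lower and 2 higher (median -1.30), led by the secreted binding proteins Igfbp7 (-5.78) and Igfbp6 (-5.47), while the regulatory subunit gene Pik3r3 rose 5.35-fold. In glycolysis 9 of 18 were lower and 4 higher. Slc2a3, a high affinity glucose carrier, gave 3831, 2588, 3119 and 4025 against 208, 177 and 210, and the platelet form of phosphofructokinase, Pfkp, rose 9.28-fold, whereas Gpi and Ldhb fell by 2.97 and 2.93. The muscle form of phosphoglycerate mutase, Pgam2, rose 99.5-fold from at most 2.37 in early germ cells to at least 565. In the antioxidant list 19 of 37 were lower and 7 higher (median -1.31). Txn1 fell by 6.04 on the log2 scale and Gpx1 fell by 5.73, while Txnrd3, the thioredoxin and glutathione reductase of testis, and Gpx4 were 7.23-fold and 4.58-fold higher. Txn1 and Gpx1 were at 2039 and 961 in Sertoli cells. Of 44 cytosolic ribosomal protein genes 16 were lower and 2 higher (median -0.67). Over the alternative settings 7 to 20 were lower and the median was -0.87 to -0.27. In this list, the X-linked Rpl39 was lower by 2.08, and its autosomal testis form Rpl39l1 higher at 2739 to 4430 against 933 to 1256. Of 41 proteasome genes 7 were higher and 13 lower. The interferon-inducible Psme1 and Psmb9 fell by 6.21 and 5.59, and the regulatory particle genes Psmd8 and Psmc3 rose 6.68-fold and 5.04-fold.

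X-linked genes stood apart from the autosomes. With gene positions from the GRCr8 table, 352 X-linked genes were tested and 244 (69.3%) were lower and 7 (1.99%) higher, with a median log2 difference of -1.85. Of the 244, 38 passed the filter on low signal only because of the early germ cell samples, so these had to differ. On the 20 autosomes 3073 of 11123 genes (27.6%) were lower and 2351 (21.1%) higher, with a median of -0.10, and single autosomes ranged from 23.9% to 34.7% lower. The median X-linked signal divided by the median autosomal signal was 0.348, 0.322, 0.357 and 0.335 in the pachytene samples and 0.877, 0.949 and 0.983 in early germ cells. It was 0.737 to 0.841 in Sertoli cells and 0.490 to 0.538 in round spermatids. The pachytene samples were lowest, and none of the 4 groups overlapped. An exact two-sided permutation test of pachytene samples against early germ cells gave p = 0.0571, the smallest that 4 against 3 samples allow, so this test could not pass 0.05. Under median scaling 61.7% of X-linked genes were lower and 21.5% of autosomal genes.

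**Figure D4:**
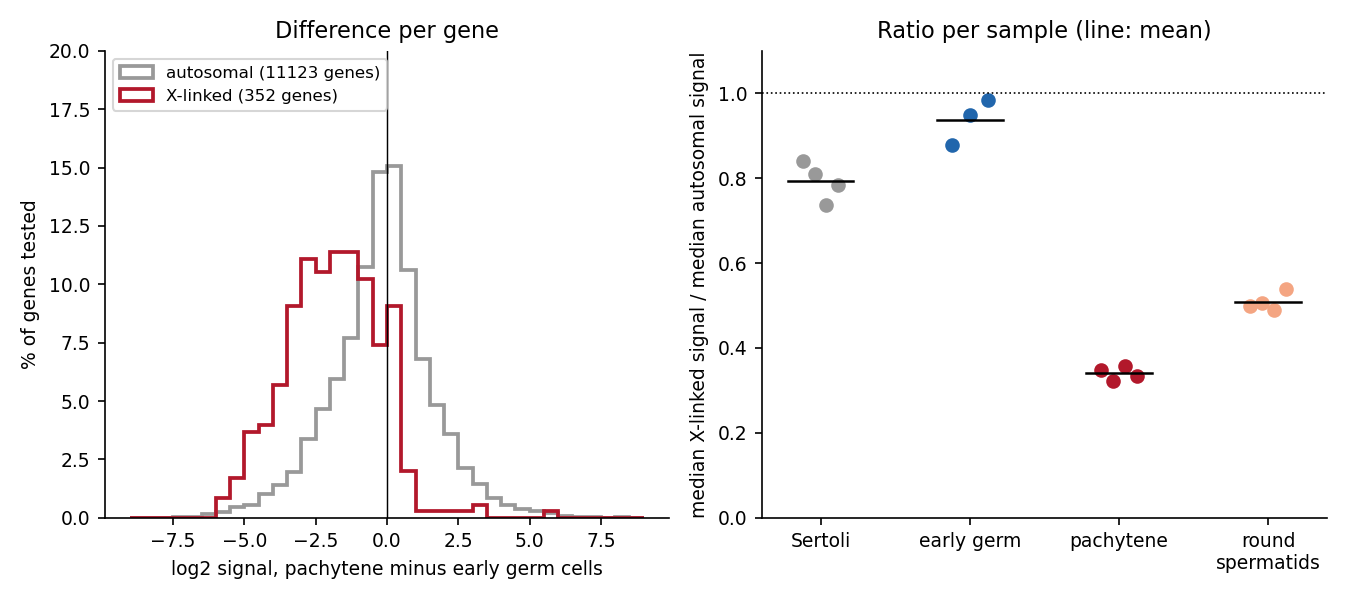
Left, the distribution of log2 differences (pachytene minus early germ cells, in steps of 0.5) for 352 X-linked and 11123 autosomal genes, as % of each. Right, the ratio of median X-linked to median autosomal signal in each of the 15 isolated cell samples, with a line at the mean; the 4 pachytene samples lie between 0.322 and 0.357.

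The X-linked genes with the largest falls were Timp1 (-5.78), Arxes1, Flna, Ddx3x, Col4a5 and Cox7b (-5.28), all present in Sertoli cells. Timp1, an inhibitor of matrix proteases, and Col4a5, a basement membrane collagen, are somatic genes, whereas the RNA helicase gene Ddx3x and the respiratory chain gene Cox7b are used by most cells. Ddx3x gave 26.0, 33.0, 46.2 and 20.2 in pachytene spermatocytes, 1269, 1415 and 1834 in early germ cells and 40.0 ± 9.20 in round spermatids (SD, n = 4). Cox7b gave 10.8, 24.9, 19.0 and 15.8 against 721, 944 and 932. When only Sertoli-low genes were counted, 32 of 87 X-linked genes (36.8%) were lower and 5 (5.75%) higher, beside 264 of 2309 autosomal ones (11.4%) lower and 482 (20.9%) higher. Of the other 265 X-linked genes 212 (80.0%) were lower and 2 (0.755%) higher, beside 2809 (31.9%) and 1869 (21.2%) of 8814 autosomal ones. Of those 32, 28 passed the filter only because of the early germ cell samples, and without early germ cell replicate 1, 2 or 3 the count was 6, 5 and 4, since a gene seen in 2 samples alone was then not tested. With the probe sets of the full comparison kept it was 33, 32 and 31, but the left-out sample had taken part in choosing those, so this is no separate check. Of the X-linked Sertoli-low genes that were also present in tubules, 7 of 61 (11.5%) were lower and 5 (8.20%) higher, beside 5.32% and 22.7% of 2066 autosomal genes. The median log2 difference was -0.30 for the 87 Sertoli-low X-linked genes and 0.16 for the 2309 autosomal ones. For the 61 also present in tubules it was 0.03, so the typical gene of that set did not fall. The share of lower genes was above the autosomal one in each set. In the Sertoli-low set 28 of the 32 lower genes had to differ by the filter, so that comparison supports nothing. The difference was smallest where Sertoli cells lacked the gene and tubules had it, a set with only 7 lower genes. Heph, a copper oxidase at 9.96 to 26.3 against 108 to 153, fell most of these 7 and was named after its value was seen. It was at most 39.9 in Sertoli cells and 38.1 in round spermatids. Heph and others of the 7 thus passed the filter only because of the early germ cell samples. These had to differ, so the count of 7 is no support either.

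The 7 X-linked genes that rose included genes of the sperm. Akap4, the main protein of the fibrous sheath of the tail, gave 477, 351, 519 and 395 against 1.26, 1.43 and 2.58, a 63.7-fold difference. The histone genes H2ap and H2al2l rose 9.20-fold and 8.61-fold, Samt3 6.45-fold, 1700020N15Rikl 5.44-fold and Pou3f4 3.01-fold. The seventh, Ribc1, was named after its value was seen and was at 19.3 to 45.0 against 4.81 to 13.4. In round spermatids every one of the 7 was higher than in pachytene spermatocytes, as with Akap4 at 2703 ± 382 (SD, n = 4), Samt3 at 631 ± 30.4 and Pou3f4 at 74.1 ± 18.5. As for the acrosome and spermatid list, the part that spermatids carried along in the fraction play in these rises was not tested.

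For some X-linked or widely used genes, germ cells are known to use a relative, often a copy that came from RNA. Of 34 such pairs 15 had both members tested, and in 11 the germ cell form was higher, in 9 the counterpart was lower, and in 6 both held. In the pair of Cpeb1 and Cpeb4 the germ cell form was lower (-1.73) and the counterpart was not called (0.31). The 6 X-linked counterparts in these 15 pairs, Pdha1, Cstf2, Cetn2, Timm8a1, Smc1a and Stag2, were lower. Of all 12 X-linked counterparts tested 11 were lower, beside 69.3% of X-linked genes, and Utp14a, whose germ cell form was not tested, was at -0.76 and not called. Cetn1, a centrin, gave 2215, 1559, 2003 and 2011 against 22.3, 16.8 and 53.9, and X-linked Cetn2 gave 4.36, 5.39, 6.26 and 14.9 against 317, 320 and 241. The log2 differences of the 2 centrins were 5.88 and -4.59, and Cetn2 was at 251 in Sertoli cells. Pdha2, of pyruvate dehydrogenase, was higher at 850 to 1054 against 169 to 254, and Pdha1 lower at 65.0 to 89.2 against 451 to 546. Opposite differences were not confined to pairs with an X-linked counterpart, as autosomal Cox6b1 fell by 2.64 where Cox6b2 rose by 2.82. Cox6b1 was at 661 in Sertoli cells. What part somatic RNA plays in the falls of the counterparts was not tested. For Cstf2t (1.23-fold), Smc1b (1.62-fold) and the carrier gene Slc25a31 (1.77-fold) the germ cell form missed the 2-fold minimum while Cstf2, Smc1a and Slc25a4 fell by 2.80, 4.46 and 4.18, but with median scaling Smc1b was at 1.09 and Slc25a31 at 1.22 and both were called. The poly(A) polymerase gene Papolb rose by 5.63 where Papola stood at 449 to 563 against 430 to 574, and Ldhc rose 5.13-fold with Ldha at 1.95-fold and not called (log2 difference 0.96, but 1.02 and 1.06 and called without early germ cell replicate 2 or pachytene replicate 2, and 1.37 and called with median scaling). The pair of Tbpl1 and Tbp rose together, 6.06-fold and 3.72-fold.

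**Figure D5:**
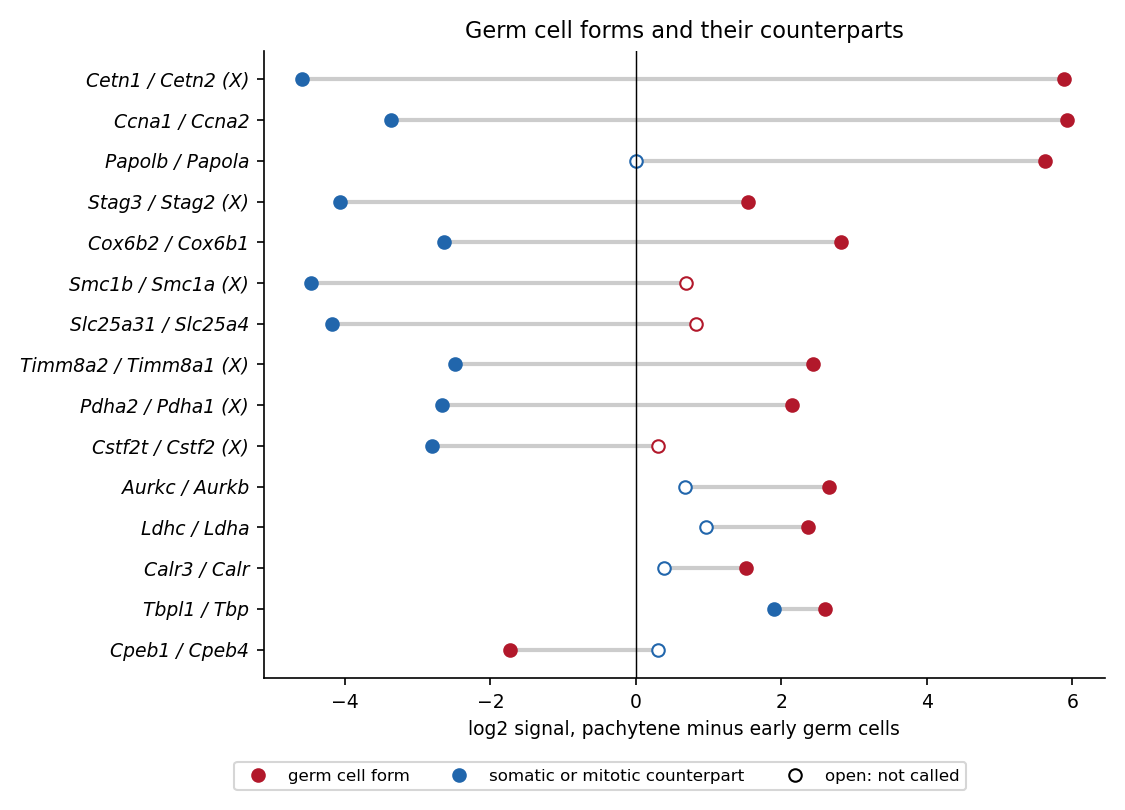
Log2 difference in signal (pachytene minus early germ cells) for the 15 pairs of a germ cell form and its counterpart with both tested; (X) marks an X-linked counterpart and open circles genes that were not called. The 6 X-linked counterparts lie between -2.49 and -4.59.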

How the data were processed

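RNA from the isolated cells, tubules and whole testis was hybridised to Affymetrix rat arrays. The authors deposited 1 table of signal intensities for 31099 probe sets in 69 samples, made with MAS5 per the submitters' processing notes; no source used here gave the scaling target. In each array the mean signal, with 2% of values trimmed at each end, was between 99.95 and 99.97. Detection calls were not used here, so a low signal was not known to be above background. After 57 control probe sets were left out, 31042 remained. A constant of 5.11, the 10th percentile of the table, was added before log2, so folds of dim genes are understated. Probe sets above the table median of 43.7 in at least 3 of the 15 isolated cell samples were kept. Pachytene spermatocytes were compared with spermatogonia plus early spermatocytes in limma 3.58.1 (R 4.3.3) with a trended prior over the 4 isolated cell groups, with Benjamini-Hochberg adjustment over all tested probe sets. The code was tested on simulated data. Symbols came from the platform annotation updated through RefSeq: 20832 probe sets had 1 symbol, 436 listed probe sets had several or none, and 9780 were not listed. Each gene was represented by its probe set with the highest mean log2 signal over the 7 samples.

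Genes were named by rule: the 12 largest changes in each direction among Sertoli-low genes with no overlap between groups, the 6 largest falls among other genes with no overlap, up to 2 per direction in each list, all germ cell and counterpart pairs with both tested, the 6 X-linked genes with the largest fall and up to 6 that rose, and 22 key regulators, of which 16 were tested. Genes named after their values were seen are Cfap300, Efhc2, Heph, Ribc1 and Utp14a and, by the rule for genes highest in pachytene spermatocytes, Cbx7, Slc13a5, Dnah1, Dnah2, Zmynd10 and Prok2. The members and the gene lists were chosen with earlier results of these data known. The number of arrays limits the precision. Same-numbered samples of both groups did not deviate together (correlations of -0.026, 0.003 and 0.116), so no pairing was used. The alternatives covered the constant, the filter, the scaling, the model, the fold minimum, the Sertoli-low definition and each sample left out.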

Additional observations from a re-analysis of the deposited data

Results flagged for a closer look

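In 8 of the 169 genes named, 1 of the 4 pachytene samples lay far from the others by Dixon's criterion, which chance passes in about 1 in 20 groups. Rsph6a was at 487 in replicate 4 against 298 to 322 in the others, and Lin7a at 443 in replicate 4 against 334 to 345. Mus81 was at 68.3 in replicate 4 against 83.8 to 86.7. Cdkn2b was at 81.8 in replicate 1 against 107 to 113, and H1f2 at 15.9 in replicate 1 against 20.8 to 21.8. Gpi was at 47.2 in replicate 2 against 68.4 to 73.0, and Rpl39 at 31.0 in replicate 3 against 39.3 to 41.1. Utp14a was at 35.6 in replicate 4 against 86.2 to 89.4. In each of the 8, every pachytene sample stayed on the same side of all early germ cell samples. The same held for 2330 of the 2363 genes called higher and 3294 of the 3330 called lower. Some of the 8 were named by a rule that asked for it, so this is no check on them.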

How the results depend on the processing

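Under 20 alternative settings, 153 of the 169 genes named kept their direction and their side of the threshold. Under at least 1 setting 6 lost a call (Dnmt3a, Foxj2, Foxo1, Irf3, Ribc1 and Sycp1), 6 gained one (Crem, Ldha, Slc25a31, Smc1b, Spo11 and Sycp2) and 4 that were not called changed direction. Efhc2 was at 0.29 with array weights, 0.26 with median scaling and 0.23 with quantile normalization, and at -0.30 to 0.30 when 1 sample was left out; Papola was at -0.38 with quantile normalization and at -0.11 to 0.10 with 1 sample left out; Piwil2 was at 0.02 with median scaling; and Sycp3 was at -0.01 to 0.32 with 1 sample left out. Of the counts, 604 Sertoli-low probe sets and 32 X-linked Sertoli-low genes called lower were the least stable. With median scaling they were 359 and 19, with quantile normalization 382 and 20 (1539 Sertoli-low probe sets higher, beside 1007), with no filter 1426 and 49, and with 1 sample left out 167 to 619 and 4 to 32. Without early germ cell replicate 1, 2 or 3 the first count was 230, 189 and 167, because fewer probe sets were tested. With the tested probe sets kept, a setting chosen after seeing the data, it was 657, 610 and 573. The left-out sample had taken part in choosing those probe sets, so this is no separate check. A 4-fold minimum left 1676 probe sets higher and 2911 lower, 466 and 292 Sertoli-low ones, 21 X-linked Sertoli-low genes lower and 1557 autosomal genes lower. With no fold minimum 5692 were higher. With Sertoli cells at least 4-fold below the higher group, 1671 Sertoli-low probe sets were higher and 12 X-linked Sertoli-low genes lower. With Sertoli cells under the 25th percentile, the counts were 237 higher, 84 lower and 2. A fit with the replicate number as a block gave 3780 higher and 5802 lower, this block moved no count by over 1.5 times, and among the genes named it added the call of Spo11 (1.04) and changed no other call. The share of X-linked genes called lower was 58.7% to 74.7% and that of autosomal genes 21.5% to 28.7% over the settings that kept the 2-fold minimum; a 4-fold minimum left 164 of 352 X-linked genes lower, and no minimum 272 of 352 with 4349 of 11123 autosomal genes. The cause of the differences between scalings was not tested.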

Other observations

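Gene families of the nucleus and of protein synthesis differed member by member. Of 17 importin and exportin genes, which encode carriers through the nuclear pore, 8 were higher and 4 lower in pachytene spermatocytes (median 0.64, beside -0.14 for all genes). Xpo4 gave 718, 620, 663 and 742 against 142, 109 and 102 in early germ cells, and Ipo13 608, 580, 634 and 662 against 98.6, 102 and 152, while Ipo7 was lower at 105 to 141 against 357 to 488. Of 28 subunits of Mediator, the complex that links transcription factors to RNA polymerase II, 6 were higher and 2 lower. The 2 lower ones, Med12 and Med14, are both X-linked and fell by 2.34 and 3.17 on the log2 scale, and autosomal Med19 rose to between 370 and 479 from 32.3 to 69.5. The translation initiation list held a similar set: Eif2s3 and Eif1ax, both X-linked, fell by 3.51 and 4.58, and Eif2b2, of the exchange factor for eIF2, rose 8.30-fold. Its list had 12 higher and 10 lower of 49, with a median of -0.08 that was 0.31 with median scaling.

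Of 27 SR protein and hnRNP genes, which encode splicing regulators, 1 was higher and 7 lower, and the 25.9% that were lower lay below the 28.9% of all genes. The median of the list was -0.64, and over the alternative settings it was -1.07 to -0.25 with 4 to 14 genes lower. Hnrnpa1 gave 111, 105, 107 and 106 against 802, 802 and 859, and Hnrnpab 332, 356, 325 and 315 against 1639, 1655 and 1513, both with almost no spread inside a group. Both were also high in Sertoli cells, at 468 ± 38.0 and 1376 ± 132 (SD, n = 4 each). Of 12 cathepsin genes, for lysosomal proteases, 11 were lower and 0 higher, and of 24 interferon-related genes 15 were lower and 2 higher. Irf3, a transcription factor of the interferon response, was 1 of the 2, at 377 to 455 against 170 to 216, and without early germ cell replicate 3 its log2 difference was 0.98 and not called. Among ubiquitin conjugating enzymes, Ube2d2b gave 2782, 2002, 2374 and 3153 against 59.0, 52.1 and 58.3, a 41.4-fold difference.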
